A study of Mus musculus with 9 samples.

Results

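The 9 genes described here were grouped around the signalling that turns dopamine into changes of protein phosphorylation in striatal projection neurons. Not all 9 are particular to those neurons. The genes are named by gene symbol, a choice made with earlier results of these data known: Ppp1r1b, Gnal, Gnas, Gng7, Gnb5, Arpp21, Arpp19, Rasd2 and Ptpn5. All 9 were among the 14208 genes tested. They were read by 25 probe sets (groups of short oligonucleotides, each giving 1 value per array), of which 22 passed the filter on dim signals. Every gene kept at least 1 probe set, and its brightest one stands for the gene below. The 3 that did not pass all belong to Gnas.

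In striatal projection neurons the dopamine D1 receptor and an adenosine receptor activate adenylyl cyclase through the G protein Golf, whose alpha subunit is encoded by Gnal and takes the place that Gs, encoded by Gnas, has in most other cells. Cyclic AMP then activates protein kinase A, which phosphorylates DARPP-32, the product of Ppp1r1b, and thereby turns it into an inhibitor of a protein phosphatase. D2 receptors act the opposite way through inhibitory G proteins, and complexes of Gnb5 with RGS proteins of the R7 family end that inhibitory signal.

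RNA was compared between 3 mouse brain regions: the BNST (bed nucleus of the stria terminalis), which belongs to the extended amygdala, the NAc (nucleus accumbens), which is ventral striatum, and the dorsal striatum (dStr). The labels name no treatment besides brief isoflurane anaesthesia before death, and the tissue was punched from coronal brain slices of 300 µm. Each region had 3 samples that the labels call biological replicates, each read on 1 Affymetrix Mouse430_2 array from 10 ng of total RNA amplified in 2 rounds. Strain, age and the number of mice behind a sample were not found in the labels, so p-values measure the spread between these samples. Array medians ran from 93.9 to 102 intensity units, with a common floor of 15, and 3 arrays per region limit the precision.

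Over all tested genes, 2 arrays stood apart from others of their region. BNST 1 correlated with NAc 3 at 0.966 and with NAc 2 at 0.954, but with BNST 3 at 0.948 and BNST 2 at 0.934. NAc 1 correlated with the other NAc arrays at 0.938 and 0.909, against 0.925 with dStr 2 and 0.924 with BNST 3. Counts of the 9 genes are also given with both arrays left out.

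The tissue labels were set against marker genes of striatal projection neurons. Of these markers 13 were tested, and Adora2a was not. None of the 13 stood at the floor on any array. Their summed intensity was 4946 to 10419 on the BNST arrays, 18279 to 29773 on the NAc arrays and 31551 to 35162 on the dStr arrays. All 13 were lower in BNST than in dStr and 11 were lower in BNST than in NAc, while 4 were lower in NAc than in dStr. Other cell types also differed between BNST and dStr. Of 9 astrocyte markers 4 were higher in BNST, with sums of 16637 to 18485 in BNST against 11986 to 12663 in dStr. Of 6 ependyma and choroid plexus markers 4 were higher, with sums of 1478 to 3078 in BNST against 406 to 549 in dStr, where Otx2, Tmem212 and Enkur stood at the floor on all 3 arrays. Of 8 microglia markers 6 were lower, with sums of 2829 to 3580 in BNST against 4811 to 4963 in dStr, and of 9 markers of neurons at large 2 were higher and 1 lower. Of 5 markers of glutamatergic neurons only Slc17a6 was tested, and it was 4.32-fold higher (adjusted p = 0.000412, limma), at 173 ± 26.0 units in BNST and 27.9 ± 8.09 in dStr (SD, n = 3 each). Between BNST and NAc the same 3 kinds of marker were higher in BNST, in 2 of 9 astrocyte markers, in 4 of 6 ependyma and choroid plexus markers (sums of 1478 to 3078 in BNST against 459 to 507 in NAc) and in Slc17a6 (log2 difference 1.83, adjusted p = 0.00523, limma). In bulk punches fewer cells of a type and less RNA per cell cannot be told apart, and the part of cell composition in the differences below was not tested.

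The promoters of 3 of the genes are shown because they belong to members at the ends of the range: Rasd2 with the largest difference between BNST and dStr among the 7 whose windows were used, Gng7 with the smallest adjusted p, and Gnas, which moved the other way. Each is the 250 bases before a RefSeq start in build GRCm38.p6, read along the gene. Rasd2 lies at chr8:75213694-75213943 on the plus strand, Gng7 at chr10:81014926-81015175 on the minus strand, the more upstream of 2 Gng7 starts, and Gnas at chr2:174329756-174330005 on the plus strand, the last being the most downstream of 4 Gnas starts in the table.
Rasd2: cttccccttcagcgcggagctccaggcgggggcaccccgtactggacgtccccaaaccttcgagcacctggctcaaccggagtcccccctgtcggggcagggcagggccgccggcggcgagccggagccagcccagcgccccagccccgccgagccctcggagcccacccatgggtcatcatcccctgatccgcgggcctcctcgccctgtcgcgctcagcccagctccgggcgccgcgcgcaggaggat
Gng7: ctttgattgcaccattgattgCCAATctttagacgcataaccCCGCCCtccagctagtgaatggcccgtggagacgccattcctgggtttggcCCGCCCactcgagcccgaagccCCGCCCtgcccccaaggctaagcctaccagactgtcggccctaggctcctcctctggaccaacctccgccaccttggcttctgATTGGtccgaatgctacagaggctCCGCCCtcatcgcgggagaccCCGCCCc
Gnas: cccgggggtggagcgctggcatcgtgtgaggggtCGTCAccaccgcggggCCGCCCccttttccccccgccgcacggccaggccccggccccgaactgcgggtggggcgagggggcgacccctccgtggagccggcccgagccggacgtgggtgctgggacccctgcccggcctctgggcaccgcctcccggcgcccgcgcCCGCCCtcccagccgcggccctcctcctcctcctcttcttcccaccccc
Capitals mark matches, on either strand, to the GC box GGGCGG, the CCAAT box CCAAT and the cyclic AMP response half-site TGACG; the TATA box TATAAA, also searched, has no match in these windows, and no match overlaps another. The Gng7 window holds 5 GC boxes and 2 CCAAT boxes, the Gnas window 2 GC boxes and 1 half-site, and the Rasd2 window none of the 4. The window at the other Gng7 start holds 1 half-site and none of the rest, and each of the other 3 Gnas windows holds a TATA box. Of all 32851 windows of this length in the table, 32.7% hold a GC box, 33.8% a CCAAT box, 17.8% the half-site and 12.4% the TATA box. Among the 21 windows used for 7 of the 9 genes, some of which overlap and share matches, 4 hold a GC box, 8 a CCAAT box, 6 the half-site and 4 the TATA box. These letters are a description of the sequence and not sites of binding.

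Between BNST and dStr, the comparison of a limbic nucleus with the dorsal striatum, all 9 genes differed, 8 being lower and Gnas higher in BNST (limma, adjusted p under 0.05). Over all tested genes 14.3% passed this threshold, 9.33% lower and 4.94% higher, or 1325 and 702 genes (1166 and 1265 after quantile normalisation, which shifted the all-gene median by 0.12 log2 units). For all 9 the BNST arrays lay wholly above or wholly below the dStr arrays, which held for 36.4% of all genes (14.9% above, 21.5% below). The median log2 difference of the 9 was -1.78, against -0.06 for all genes. With BNST 1 and NAc 1 left out all 9 passed again, and so did 29.2% of all genes.

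Ppp1r1b had 451, 149 and 229 intensity units on the BNST arrays, 470, 1095 and 1131 on the NAc arrays and 2034, 2121 and 2438 on the dStr arrays. The dStr arrays were the highest and lay close together, the BNST arrays were the lowest, and NAc 1 stood next to the brightest BNST array. Means were 276 ± 156 in BNST and 2198 ± 212 in dStr (SD, n = 3 each). The gene was 8.29-fold lower in BNST than in dStr (log2 difference -3.05, standard error 0.39, adjusted p = 0.000676, limma).

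**Figure D1:**
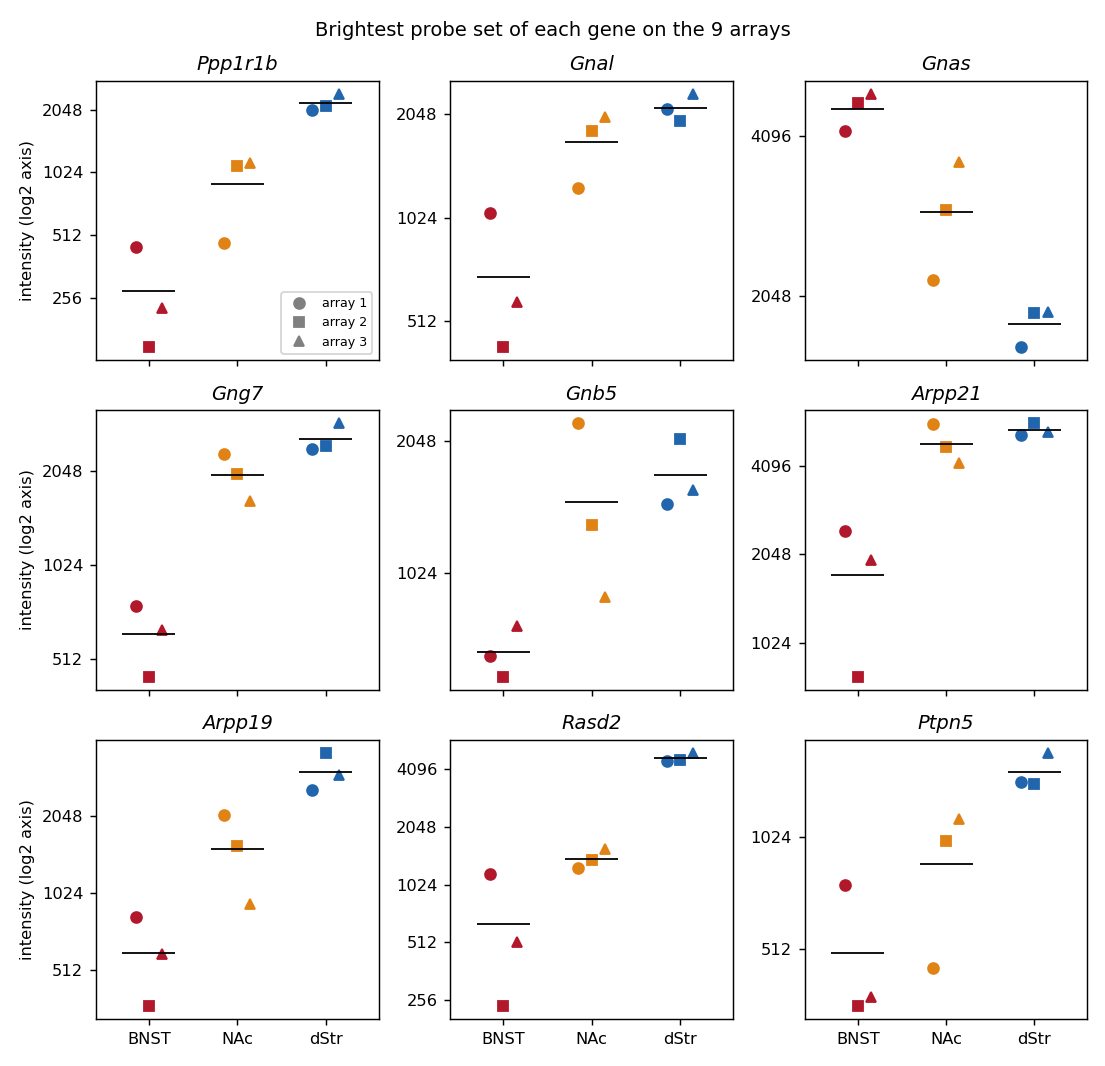
Intensity of each gene's brightest probe set (log2 axis, each panel with its own range) on the 9 arrays, by region, with symbols for the array number and bars for the mean. In 8 panels the BNST arrays lie below the dStr arrays, and in the Gnas panel the order is turned round, with 4190 to 4917 in BNST and 1638 to 1913 in dStr.

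The 2 alpha subunit genes went opposite ways. Gnal, the Golf alpha subunit, had 1058, 430 and 585 units in BNST, 1249, 1835 and 2006 in NAc and 2118, 1954 and 2350 in dStr. BNST 1 was the brightest BNST array and NAc 1 the dimmest NAc array, and neither overlapped the dStr range. The difference between BNST and dStr was -1.70 (standard error 0.29, adjusted p = 0.00349, limma), or 3.26-fold lower in BNST.

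Gnas, the Gs alpha subunit, had 4190, 4724 and 4917 units in BNST, 2198, 2976 and 3650 in NAc and 1638, 1899 and 1913 in dStr. The regions did not overlap, with BNST highest and dStr lowest. It was 2.52-fold higher in BNST than in dStr (log2 difference 1.34, standard error 0.18, adjusted p = 0.000954, limma). Its other kept probe set was also higher, by 0.70, at 115 ± 20.4 in BNST and 64.4 ± 5.60 in dStr (SD, n = 3 each), a call that ended without BNST 2 (adjusted p = 0.0926, limma), dStr 1 (0.0902), dStr 2 (0.0555) or dStr 3 (0.06). The 3 probe sets that did not pass the filter read 15.2 to 94.5 units in BNST and 15 to 77.9 in dStr, and gave no test. The Gnas locus makes several transcripts from different starts, and which of them each probe set reads is not given in the sources used here.

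Within each array the log2 value of Gnal minus that of Gnas was -1.97, -3.41 and -3.04 in BNST, -0.81, -0.69 and -0.86 in NAc and 0.37, 0.04 and 0.29 in dStr. Its mean was -2.81 ± 0.75 in BNST, -0.79 ± 0.08 in NAc and 0.23 ± 0.17 in dStr (SD, n = 3 each). Signals of different probe sets are not on one scale, so only the shift between regions can be read, not the sign. The 3 regions did not overlap in it, and NAc 1, which stood apart in Gnal and in Gnas singly, lay between the other NAc arrays.

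Gng7, the gamma subunit that striatal Golf requires in mice, had 756, 447 and 633 units in BNST, 2334, 2009 and 1646 in NAc and 2406, 2474 and 2923 in dStr. All BNST arrays lay far below all others, and NAc 1 came close to the dimmest dStr array. The gene was 4.24-fold lower in BNST than in dStr (log2 difference -2.08, standard error 0.20, adjusted p = 0.000153, limma), the smallest adjusted p of the 9.

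Gnb5, the divergent beta subunit bound by R7 RGS proteins, had 661, 592 and 772 units in BNST, 2245, 1311 and 900 in NAc and 1469, 2069 and 1579 in dStr. BNST was lowest without overlap, and the NAc arrays spread over more than the whole dStr range. It was 2.48-fold lower in BNST than in dStr (log2 difference -1.31, adjusted p = 0.0118, limma), and the call ended without BNST 2 (adjusted p = 0.0515, limma) or dStr 2 (0.0513). Its second probe set showed a larger difference, -2.27, at 141 ± 24.9 units in BNST and 739 ± 82.1 in dStr (SD, n = 3 each). That probe set is of the kind that the manufacturer marks as open to cross-hybridisation.

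Among the small phosphoproteins, Arpp21, a protein kinase A substrate that binds calmodulin once phosphorylated, had 2465, 786 and 1963 units in BNST, 5662, 4755 and 4196 in NAc and 5217, 5718 and 5317 in dStr. BNST 2 was the dimmest array by far, and the NAc and dStr arrays overlapped. The gene was 3.44-fold lower in BNST than in dStr (log2 difference -1.78, adjusted p = 0.00606, limma). All 5 of its probe sets were lower in BNST, by -0.96 to -2.43 on the log2 scale, though the calls of 2 of them ended when BNST 2, BNST 3 or any dStr array was left out, with an adjusted p of up to 0.119.

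Arpp19, whose product inhibits the phosphatase PP2A when phosphorylated by the Greatwall kinase, had 825, 369 and 591 units in BNST, 2076, 1566 and 931 in NAc and 2586, 3643 and 2970 in dStr. The regions did not overlap. It was 5.25-fold lower in BNST than in dStr (log2 difference -2.39, adjusted p = 0.000937, limma), and its 3 probe sets were lower by -1.25 to -2.39, the smallest of these differences not passing without BNST 2 (adjusted p = 0.0571, limma) or dStr 3 (0.0562).

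Rasd2, which encodes the striatal small GTPase Rhes, had 1161, 237 and 514 units in BNST, 1254, 1373 and 1569 in NAc and 4529, 4577 and 5016 in dStr. The dStr arrays stood clear of all others, and BNST 1 came close to NAc 1. It was 8.73-fold lower in BNST than in dStr (log2 difference -3.13, standard error 0.42, adjusted p = 0.000889, limma), which lay within the standard error of the difference for Ppp1r1b. Without BNST 2 the difference for Rasd2 was the smaller in size, at -2.58 against -2.71 for Ppp1r1b. Its second probe set read 98.3, 42.3 and 52.6 in BNST, 117, 111 and 112 in NAc and 839, 578 and 1071 in dStr, a difference of -3.41 between BNST and dStr.

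Ptpn5, which encodes STEP, a tyrosine phosphatase that acts on MAP kinases, Fyn and glutamate receptor subunits, had 761, 361 and 383 units in BNST, 457, 998 and 1143 in NAc and 1437, 1424 and 1726 in dStr. NAc 1 lay within the BNST range, and all dStr arrays were above the rest. The gene was 3.15-fold lower in BNST than in dStr (log2 difference -1.66, adjusted p = 0.0101, limma), and the call ended without BNST 3 (adjusted p = 0.0526, limma). Its 3 probe sets were lower by -1.32 to -1.72, and 2 of them lost the call without BNST 2 or BNST 3, the brightest also without dStr 3 and another without dStr 1, with an adjusted p of at most 0.0578.

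**Figure D2:**
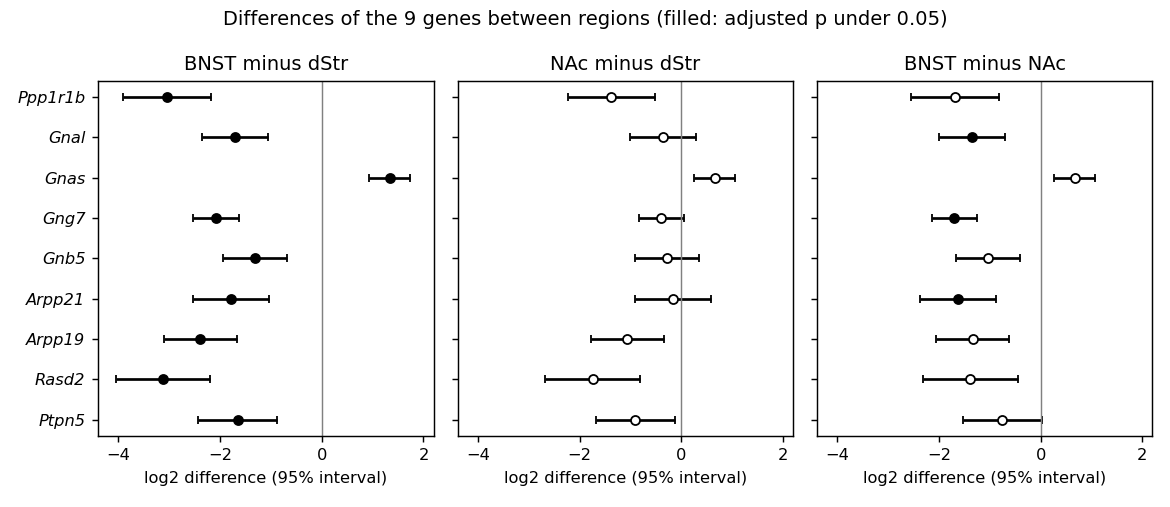
Log2 difference of each gene in the 3 comparisons, with 95% intervals of the fit; filled points passed an adjusted p of 0.05. All 9 points are filled between BNST and dStr, 0 between NAc and dStr and 3 (Gnal, Gng7 and Arpp21) between BNST and NAc.

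The comparison of the ventral with the dorsal striatum shares its dStr arrays with the one above. None of the 9 genes passed between NAc and dStr (limma, adjusted p under 0.05), where 2.05% of all genes did (0.950% higher, 1.10% lower), and 5 of 9 (Ppp1r1b, Gnas, Arpp19, Rasd2 and Ptpn5) had an unadjusted p under 0.05, which 13.1% of all genes had. The arrays of 6 did not overlap, against 19.1% of all genes (9.11% above, 10.0% below), with Gnas above and Ppp1r1b, Gng7, Arpp19, Rasd2 and Ptpn5 below dStr in NAc. The largest differences were -1.74 for Rasd2 (95% interval -2.67 to -0.81, adjusted p = 0.0698, limma) and -1.37 for Ppp1r1b (-2.24 to -0.51, adjusted p = 0.132). At the other end Arpp21 differed by -0.16, with an interval of -0.91 to 0.59, so that a difference of 1 log2 unit lay outside it. With BNST 1 and NAc 1 left out, 4 passed, namely Rasd2, Ppp1r1b and Arpp19 lower and Gnas higher in NAc, and the share of all genes was 4.98%.

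At the level of single probe sets 3 of the 22 were lower in NAc than in dStr and 0 higher, against 0.959% and 0.724% of all 29293 probe sets. The dimmer Rasd2 probe set was 6.34-fold lower in NAc (log2 difference -2.66, standard error 0.27, adjusted p = 0.00191, limma), with the 3 NAc arrays within 111 to 117 units. One of the Arpp19 probe sets had 245, 249 and 313 units in NAc against 568, 612 and 678 in dStr, which did not overlap. It was lower by -1.16 (adjusted p = 0.0101, limma, and 0.0667 without dStr 3). The second Gnb5 probe set was lower by -0.93 (adjusted p = 0.0268, limma), and this call ended without BNST 3, NAc 2, NAc 3 or any dStr array, with an adjusted p of 0.0514 to 0.118.

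**Figure D3:**
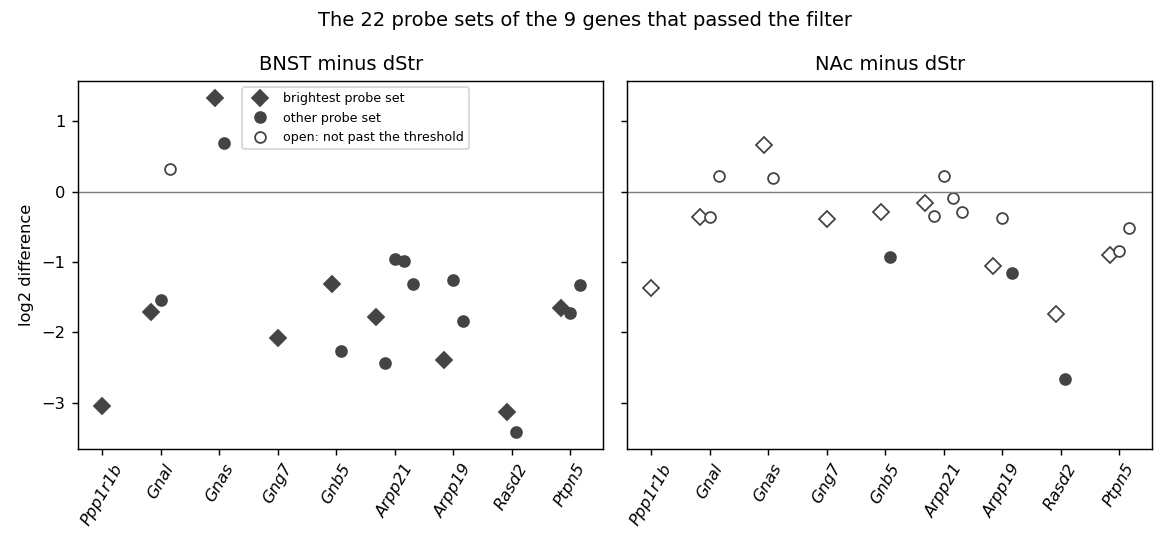
Log2 difference of the 22 kept probe sets, by gene, between BNST and dStr (left) and between NAc and dStr (right); diamonds are the brightest probe set of a gene, and filled symbols passed an adjusted p of 0.05. Between BNST and dStr 21 are filled, the open one being a Gnal probe set at 0.33, while between NAc and dStr 3 are filled.

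Probe sets of one gene mostly moved together. Between BNST and dStr 19 of 22 were lower (9.31% of all probe sets), 2 were higher (4.33%), both of Gnas, and 1 did not pass. That one, of Gnal, read 44.6 to 92.9 units on all arrays. Over the 9 arrays the probe sets of Ptpn5 correlated at 0.944 to 0.984 and those of Arpp19 at 0.783 to 0.965, while the dim Gnal probe set correlated with the other Gnal probe sets at -0.69 and -0.42. These values are descriptions, since the arrays share their regions.

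Between BNST and NAc 3 genes passed, all lower in BNST: Gng7, Arpp21 and Gnal (limma, adjusted p under 0.05). Of all genes 2.24% passed, 1.48% lower and 0.760% higher. For 8 of the 9 the arrays of both regions were apart, with Gnas above and all others but Ptpn5 below in BNST, against 14.6% of all genes (5.79% above, 8.85% below). Of the 22 probe sets 5 were lower, against 1.16% of all probe sets. They were 3 of Arpp21, 1 of Gng7 and the second of Gnb5. None was of Gnal, whose brightest probe set had an adjusted p of 0.0519 in that fit (limma). Gng7 was 3.24-fold lower (log2 difference -1.70, standard error 0.20, adjusted p = 0.00274, limma) and passed under all 20 alternatives, with an adjusted p of at most 0.0261. Arpp21 was lower by -1.62 (adjusted p = 0.0375, limma), a call that ended without BNST 3 (0.0926), NAc 1 (0.0744), NAc 2 (0.133), dStr 1 (0.075), dStr 2 (0.0742) or dStr 3 (0.0698). Gnal was lower by -1.35 (adjusted p = 0.0417, limma), which ended without BNST 2 (0.144), BNST 3 (0.186), NAc 2 (0.164), NAc 3 (0.0852), dStr 1 (0.0842), dStr 2 (0.0813) or dStr 3 (0.0766).

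Of the other 6, Ppp1r1b differed between BNST and NAc by -1.68 (adjusted p = 0.0573, limma), Arpp19 by -1.33 (0.0659) and Gnas by 0.67 (0.0949). Gnb5 differed by -1.03 (0.102), Rasd2 by -1.38 (0.142) and Ptpn5 by -0.75 (0.416). With BNST 1 and NAc 1 both left out 8 of 9 passed, all but Gnb5, with Gnas higher and the 7 others lower in BNST, while the share of all genes that passed was 15.5%. For Ptpn5 the difference was then -1.48 (adjusted p = 0.000426, limma). Without BNST 1 alone 6 passed (4.34% of all genes), and without NAc 1 alone 3 (2.06%).

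The place of NAc between the other regions differed from gene to gene. On the log2 scale, with the BNST mean at 0% and the dStr mean at 100%, NAc stood at 90.9% for Arpp21, 81.4% for Gng7, 79% for Gnal and 78.5% for Gnb5. It stood near the middle for Arpp19 at 55.7%, Ppp1r1b at 55% and Gnas at 50.3%, and somewhat nearer to BNST for Ptpn5 at 45.3% and Rasd2 at 44.2%. The single NAc arrays ran from 39.4% to 49.7% for Rasd2 but from -2.89% to 75.3% for Ptpn5 and from 31.6% to 131% for Gnb5, and the ranges of all neighbours in this order overlapped. The ranges of Rasd2 and Arpp21, 79.4% to 104%, did not meet. NAc 1 was the dimmest NAc array for Ppp1r1b, Gnal, Gnas, Rasd2 and Ptpn5 and the brightest for Gng7, Gnb5, Arpp21 and Arpp19. For Gnas, which was lowest in dStr, this put NAc 1 nearest to dStr, at 79.3%. By their other kept probe sets NAc stood at 51.4% and 61.4% for Ptpn5, 21.9% for Rasd2, 36.7% and 70.4% for Arpp19, 59% for Gnb5, 71.8% for Gnas, 30.5% and 76.7% for Gnal and 78% to 123% for Arpp21. With BNST 1 and NAc 1 left out the place was 92.6% for Gnal, 86.9% for Arpp21, 77.5% for Gng7, 74.6% for Ptpn5 and 72% for Ppp1r1b. It was then 54.8% for Rasd2, 51.7% for Gnb5, 50.4% for Arpp19 and 38.9% for Gnas, so the order changed at both ends.

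**Figure D4:**
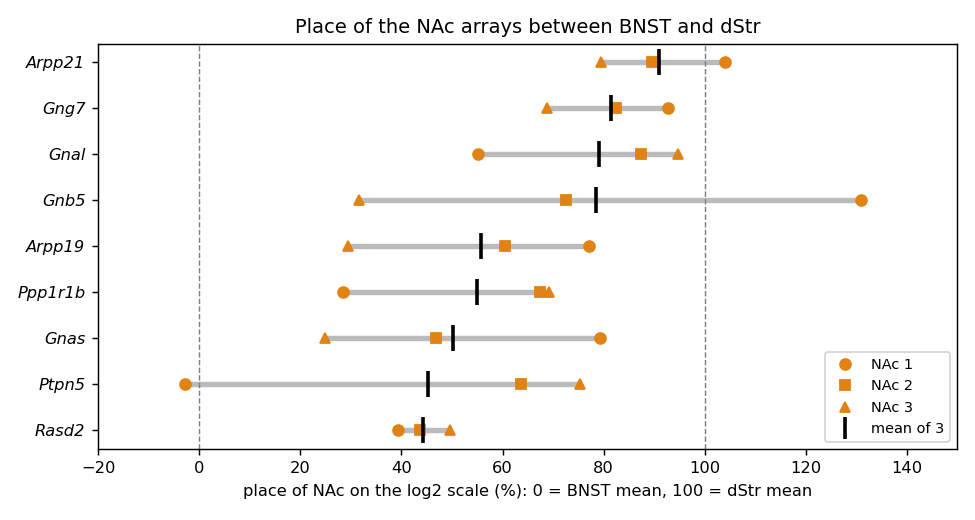
Place of the 3 NAc arrays between the BNST mean (0%) and the dStr mean (100%) on the log2 scale, by gene, with the range as a grey line and the mean as a black bar. Arpp21 has its mean at 90.9% and Rasd2 at 44.2%, and the range of Ptpn5 reaches below 0%.

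Of 9 tested genes for receptors, cyclase, phosphodiesterases and regulators around Golf, 8 were lower in BNST than in dStr, against 9.33% of all genes. The list median was -2.29 against -0.06 for all genes. The receptor genes Adora2a and Chrm4 of this list were not tested. Drd1, the D1 receptor, was 6.79-fold lower (adjusted p = 0.00173, limma), at 314 ± 215 units in BNST and 1902 ± 80.5 in dStr, and Drd2, the D2 receptor, 6.33-fold lower. Pde10a, a striatal cyclic nucleotide phosphodiesterase, was 6.82-fold lower and Rgs9, the striatal R7 protein that works with Gnb5, 6.02-fold lower. The others that fell were Pde1b, Pde7b, Adcy5, the cyclase that Golf drives, and Ric8b, a chaperone of the Golf alpha subunit. For Adcy5 1 of 4 probe sets went the other way. The mean of its probe sets differed by -0.52 (adjusted p = 0.0124, limma), against -1.54 for the brightest. Ric8b was 2.28-fold lower, at 685 ± 178 in BNST and 1553 ± 138 in dStr (SD, n = 3 each). Ric8a, which serves other alpha subunits, differed by -0.12 and did not pass (adjusted p = 0.701, limma).

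Between NAc and dStr 2 of these 9, Drd2 and Rgs9, were lower in NAc, Drd2 by -1.33 (adjusted p = 0.0104, limma, and over 0.05 without dStr 1 or dStr 3) and Rgs9 by -1.29 (0.00608). Between BNST and NAc 6 were lower: Drd1, Pde10a, Pde1b, Drd2, Rgs9 and Adcy5. Among these 6 all but Rgs9 lost the call when 1 of the arrays was left out, every one of them without BNST 3. For Adcy5 1 of 4 probe sets went the other way here too, and the mean of its probe sets differed by -0.36 (adjusted p = 0.164, limma), against -1.22 for the brightest. The genes Drd1, Drd2, Pde10a, Rgs9 and Adcy5 also stand among the projection neuron markers above.

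The other G protein subunits moved in both directions. Of 10 further alpha subunit genes 1 passed between BNST and dStr, Gnai1, higher by 0.56 (adjusted p = 0.0159, limma); it did not pass without BNST 3, dStr 1 or dStr 3, and 1 of its 3 probe sets went the other way (0.39 for their mean, adjusted p = 0.143). Gnai1 was also higher in NAc than in dStr, by 0.59 (adjusted p = 0.0461, limma), not without any 1 of the NAc or dStr arrays or BNST 3. Of 12 further beta and gamma genes 4 were higher and 2 lower in BNST. Gng4 was 6.65-fold higher, at 2179 ± 378 units in BNST and 311 ± 20.6 in dStr, and Gng2 5.55-fold higher, at 568 ± 63.3 in BNST and 89.8 ± 17.2 in dStr (SD, n = 3 each). With the mean of its probe sets Gng2 differed by 1.56 log2 units, against 2.47 for the brightest. Gng3 was higher by 0.88, and Gng13 was lower by -1.82, at 112 ± 47 in BNST and 417 ± 55.7 in dStr. Gng12, higher by 0.53, and Gng10, lower by -0.63, each lost the call without any 1 of several arrays, BNST 2, BNST 3 and all dStr arrays among them. None of the 12 passed in the other comparisons (limma). Between NAc and dStr 4 of them had an unadjusted p under 0.05, which 13.1% of all genes had. Between BNST and NAc the largest differences of the 12 were 1.72 for Gng4 (adjusted p = 0.0915, limma) and 1.40 for Gng2 (0.0643).

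**Figure D5:**
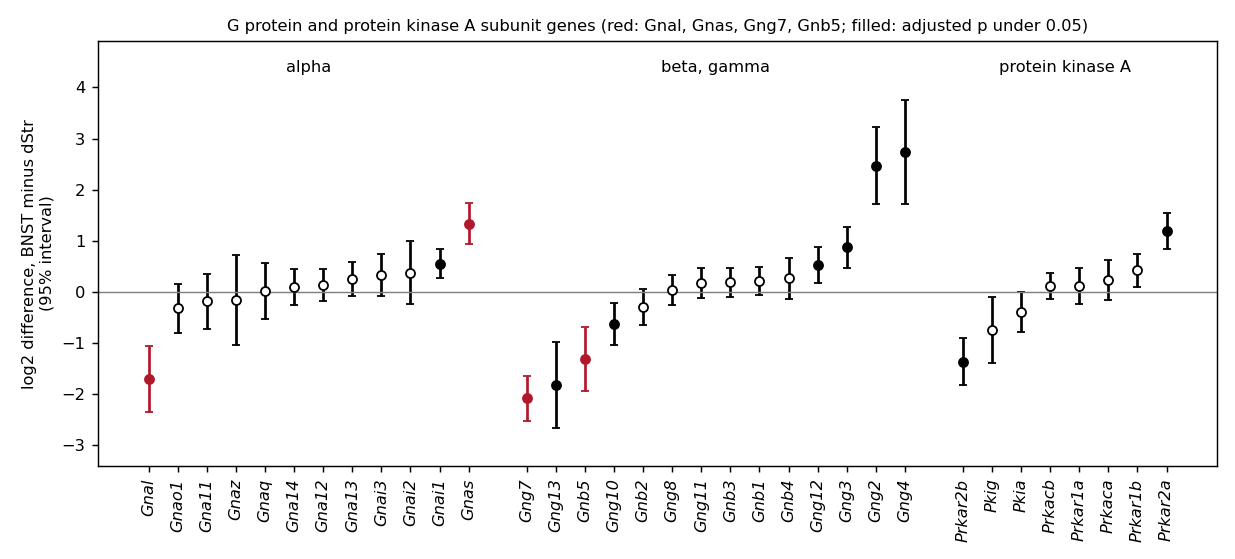
Log2 difference between BNST and dStr, with 95% intervals, for genes of G protein alpha subunits, of beta and gamma subunits, and of protein kinase A subunits and inhibitors, ordered within each group; filled points passed an adjusted p of 0.05, and Gnal, Gnas, Gng7 and Gnb5 are red. Gng4 (2.73) and Gng2 (2.47) lie highest and Gng7 (-2.08) lowest.

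The R7 complex around Gnb5 had 3 of 5 tested members lower in BNST than in dStr. Besides Rgs9 these were Rgs7bp, the membrane anchor of the complex, 5.42-fold lower at 494 ± 256 units in BNST and 2550 ± 291 in dStr, and Gpr158, a receptor that binds it, 3.27-fold lower at 53.8 ± 5.00 in BNST and 212 ± 19.3 in dStr (SD, n = 3 each), the log2 difference being -1.0046 with the mean of its probe sets and -1.71 for the brightest. Rgs7 (-0.51, adjusted p = 0.0542, limma) and Rgs11 (0.08, 0.728) did not pass. Between BNST and NAc 2 of the 5, Rgs9 and Rgs7bp, were lower in BNST, against 1.48% of all genes. Rgs7bp differed there by -1.45. Its call ended without BNST 2, BNST 3, NAc 1, NAc 2 or any dStr array, with an adjusted p of at most 0.153 (limma).

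Among 8 protein kinase A genes the type II regulatory subunits split. Prkar2b was 2.57-fold lower in BNST than in dStr (adjusted p = 0.00181, limma), at 675 ± 229 units in BNST, 1713 ± 156 in NAc and 1701 ± 115 in dStr. Prkar2a was 2.29-fold higher (0.000771), at 1032 ± 178 in BNST, 895 ± 17.3 in NAc and 441 ± 64.8 in dStr (SD, n = 3 each). NAc thus lay with dStr for Prkar2b, where BNST was lower than NAc by -1.37 (adjusted p = 0.00836, limma, and over 0.05 without BNST 3). It lay with BNST for Prkar2a, where NAc was higher than dStr by 1.01 (adjusted p = 0.00859, limma, and 0.0575 without dStr 3). The catalytic subunit genes Prkaca and Prkacb differed between BNST and dStr by 0.24 and 0.11 and did not pass.

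Of 16 kinase and phosphatase genes that act on DARPP-32 or are its target, 4 were lower in BNST than in dStr. Ppp1ca, a catalytic subunit of the phosphatase that DARPP-32 inhibits, was 2.39-fold lower (adjusted p = 0.00313, limma), at 1111 ± 206 units in BNST and 2657 ± 213 in dStr. Ppp3ca and Ppp3r1, the catalytic and regulatory subunits of calcineurin, which dephosphorylates DARPP-32, were lower by -0.93 and -1.12, the second not without BNST 2, BNST 3 or any dStr array. Ppp2r5d, a PP2A subunit regulated by protein kinase A, was lower by -0.89. Cdk5, which phosphorylates DARPP-32 at a site that makes it inhibit protein kinase A, differed by -0.06 and did not pass (adjusted p = 0.825, limma).

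Of 6 other inhibitors and targeting subunits of PP1 and PP2A, 3 were lower in BNST than in dStr. Ppp1r1a, the paralog of Ppp1r1b, had 2 of its 3 BNST arrays at the floor and 218 to 406 units in dStr, a log2 difference of -2.96 (adjusted p = 0.00151, limma). Ppp1r9a, a neurabin that targets PP1 to actin, was lower by -1.06. Ensa, the paralog of Arpp19, was lower by -0.85, and this call ended without BNST 2, BNST 3 or any dStr array, with 1 of its 2 probe sets going the other way and a mean of both that differed by -0.12 (adjusted p = 0.579, limma). Ppp1r2, another PP1 inhibitor, was lower in BNST than in NAc by -1.13 (adjusted p = 0.0184, limma, and over 0.05 without NAc 2 or in a fit of these arrays alone). It read 1148 ± 305 units in BNST and 2473 ± 323 in NAc (SD, n = 3 each). For this gene 1 of 4 probe sets went the other way, and the mean of its probe sets differed by -0.65 and did not pass (adjusted p = 0.0874, limma).

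Rasd1, the paralog of Rasd2, went the opposite way to it. It was 2.82-fold higher in BNST than in dStr (log2 difference 1.49, adjusted p = 0.000471, limma), at 124 ± 30.4 units in BNST, 46.6 ± 8.62 in NAc and 32.8 ± 3.15 in dStr (SD, n = 3 each). With a pseudocount of 64 the log2 difference was 0.94. It was also higher in BNST than in NAc, by 1.14 (adjusted p = 0.0103, limma), not without BNST 3 or NAc 2. R3hdm1 and R3hdm2, relatives of Arpp21, differed between BNST and dStr by -0.62 (0.0884) and -1.13 (0.0718) and did not pass. Of 6 tested substrates of STEP 3 were lower in BNST than in dStr, Grin2b by -0.82, Ptk2b by -0.71 and Mapk14 by -0.68. Only Ptk2b of these passed with each array left out in turn, and 3 of the 5 Mapk14 and 1 of the 3 Grin2b probe sets went the other way. The mean of the Mapk14 probe sets differed by -0.06 (adjusted p = 0.740, limma). Fyn differed by 0.05 and did not pass.

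The genes whose pattern over the 9 arrays was most like that of Ppp1r1b, among the 6841 candidates with a mean above the median of all tested genes, were Mgat4b at a Pearson r of 0.994, Crlf2 at 0.993, Mpped2 at 0.992, Mrpl16 at 0.991, Mn1 at 0.991 and C1qtnf12 at 0.989. For Gnas they were Gng2 at 0.981, Disp2 at 0.980, Gprasp2 at 0.978 and Shisal1 at 0.978. Gng2 is thus a gamma subunit gene that ran with the Gs alpha gene across the arrays, while Gng7 correlated with Gnas at -0.91 and with Gnal at 0.92. Among the 9 genes Ppp1r1b was closest to Ptpn5 at 0.969, Rasd2 at 0.965 and Gnal at 0.962, and Gnb5 and Ptpn5 were the least alike of the 8 that fell in BNST, at 0.48. The arrays share their 3 regions, so these coefficients describe likeness and carry no test.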

How the data were processed

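Intensity values were used as deposited by the authors, as a table of linear summaries for 45037 probe sets on the 9 arrays; how they were summarised and scaled is not given in the sources used here. Per the labels' protocols, RNA extraction used Stat-60 and the label was biotin. Values were tested as log2(intensity + 16), so differences of genes near the floor are understated. The platform annotation used, dated 2016, gave 1 symbol to 34945 probe sets, several to 932 and none to 9160, and genes were built from the first kind. The filter required 3 or more arrays over their own 40th percentile, and the brightest probe set left, by its mean, stood for its gene. Limma 3.58.1 in R 4.3.3 fitted 1 mean per region over the 9 arrays, with 6 residual degrees of freedom, once over 14208 genes and once over 29293 probe sets. P-values were 2-sided and adjusted by Benjamini-Hochberg over the whole table in each comparison, with a threshold of 0.05. The procedure was also run on simulated data. The noise there was independent for each gene and array, unlike the array-wide departures of BNST 1 and NAc 1.

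The 9 genes, the gene lists, the tests and the alternatives were chosen with earlier results of these data known. The text names all 9 genes with their probe sets. From each list other than the cell type markers it names up to 4 genes per comparison and direction with the largest difference among those that passed. Of the genes that did not pass, only some are named, also where these are 5 or fewer. The 6 and 4 genes most like Ppp1r1b and Gnas are named as well, without unnamed transcripts. Any other gene was picked with its values in view. The alternatives tried were median centring, quantile normalisation, pseudocounts of 1 and 64, no filter or one at the 60th percentile, a gene's mean over its probe sets, a replicate block, a trended robust prior, only the arrays of a pair, each array left out in turn, BNST 1 and NAc 1 left out together, and a minimum absolute log2 difference of 1. Their use on the pathway genes was added after seeing the data. Promoter sequences are RefSeq's, build GRCm38.p6, matched by symbol for 7 of the 9 genes. Gnal was left out by choice, and no window was available for Ppp1r1b.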

Additional observations from a re-analysis of the deposited data

How the results depend on the processing

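Of 540 values of the 9 genes under these alternatives, 490 kept their direction and their side of the threshold, 22 lost it, 27 gained it and 1 changed sign. Between BNST and dStr 8 to 9 of the genes passed with 1 array left out, between NAc and dStr 0 to 2 and between BNST and NAc 1 to 6, while 1112 to 2674, 112 to 419 and 101 to 617 of all genes did, against 2027, 291 and 318 with all arrays. With BNST 1 and NAc 1 both left out, 4150, 707 and 2203 genes passed in these comparisons, 4 of the 9 between NAc and dStr and 8 between BNST and NAc. Between NAc and dStr, where 0 of the 9 passed, 1 did after quantile normalisation, with the mean of probe sets and with the arrays of the pair alone, in each case Rasd2. Between BNST and NAc, where 3 passed, 1 did without a filter, with the arrays of the pair alone (71 of all genes) and with the replicate block, and 5 with the mean of probe sets. Whether replicate numbers pair the arrays could not be settled, with 3 arrays per region and BNST 1 and NAc 1 standing apart. Over 9 same-numbered pairs the correlation of deviations ran from -0.51 (BNST 1 with NAc 1) to 0.26, and 2 were over 0.1. Over 18 pairs of unlike number it ran from -0.34 to 0.42, and 8 were over 0.1. Of the 9 arrays 0 correlated best with their own number. With the replicate block 183 genes passed between NAc and dStr and 196 between BNST and NAc. Requiring an absolute log2 difference of at least 1 left 866 genes in the BNST-dStr comparison and 175 in that of NAc with dStr. Differences near 0 changed sign between NAc and dStr for Gnb5 without NAc 3 (0.0249, as gene and as probe set) and for an Arpp21 probe set without NAc 1, alone or with BNST 1 (0.0331), and between BNST and NAc for the dim Gnal probe set without NAc 3 (-0.0081); the cause was not tested. With 1 array left out, these values ran from -0.6274 to 0.0249 for Gnb5, from -0.2497 to 0.0331 for the Arpp21 probe set and from -0.0081 to 0.2726 for the Gnal probe set. Of the pathway genes that passed, 7 of 30 in the first comparison, 3 of 4 in the second and 9 of 10 in the third lost the call without 1 array. For the dimmest Gnal and Gnas probe sets, signal near the floor limits what could be seen.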
